A study of Mus musculus with 8 samples.

Results

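Unmarked Foxp3-expressing CD4 T cells, which carried no tdTomato at sorting, were compared between the GFP and the Thy1.1 reporter of Foxp3 in mouse mesenteric lymph nodes. It sets 4 of the 8 libraries of the series against each other, 2 for each population, takes the spread between libraries from all 8, and covers 13989 expressed genes of the 24108 named genes that were counted. Foxp3, a transcription factor, is the hallmark of regulatory T (Treg) cells, which restrain immune responses and keep the intestine tolerant of food and microbes. Treg cells arise in the thymus or from conventional CD4 T cells in the periphery, and the gut-draining lymph nodes are a main site of the second route. Resting Treg cells recirculate through lymphoid organs, whereas effector Treg cells divide and carry inhibitory receptors and receptors for homing to tissue.

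All populations came from mice of 1 strain label, with the alleles Foxp3 DTR-GFP/Thy1.1, CD4 CreER/wt and R26 lsl-tdTomato/wt. DTR is the receptor for diphtheria toxin and makes mouse cells sensitive to it, CreER is a recombinase that acts after tamoxifen, and lsl-tdTomato is a red reporter that the recombinase switches on for good. The mice were raised on AVNM, an abbreviation that the labels do not spell out, and on a diet defined in its amino acids. They then received tamoxifen, with diphtheria toxin over the same labelling period of about 3 weeks, and after it chow and a fecal microbiota from SPF mice. CD4 T cells were sorted at day 12 of colonization. By the series' design, tamoxifen was to mark CD4 T cells that were outside the thymus and lacked Foxp3 at the time. The groups used here are tdTomato-negative (unmarked) GFP cells and tdTomato-negative Thy1.1 cells, and the same pair of reporters among tdTomato-positive (marked) cells. The marked libraries entered every edgeR fit through the shared spread and scaling, and their levels were compared in the last paragraphs. Both reporters' cells therefore came from mice given the toxin, and only the GFP allele is labelled with its receptor. Whether Thy1.1 cells that already had Foxp3 were marked as well is not given, so marked Thy1.1 cells may include them. Cells in which the recombinase did not act and cells formed after tamoxifen had gone are both unmarked and cannot be told apart. The labels give no age. They state neither whether a population's libraries are separate animals nor whether the same animals gave both populations. The p-values therefore describe library-to-library spread only, part of which may be technical.

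The 4 unmarked libraries held 43171231 to 47105591 counts, and a count of 0 leaves room for up to 3 counts, or 0.0635 to 0.0700 CPM. CPM express a count relative to the library total after TMM scaling. Cd4 lay between 301 and 390 CPM and Cd3e between 965 and 1081 CPM in these libraries. The tables number the GFP libraries 3 and 4 and the Thy1.1 libraries 1 and 2, and these numbers are used here.

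GFP library 3 stood apart from the others in RNA of antigen-presenting cells. In it, 15 genes were over 8-fold higher than in any of the 7 other libraries and reached at least 5 CPM. Such genes numbered 0 in GFP library 4 and in both unmarked Thy1.1 libraries. Marked GFP libraries 3 and 4 had 7 and 3 such genes of their own, and both marked Thy1.1 libraries had 0. Siglech, a surface receptor of plasmacytoid dendritic cells, was at 36.8 CPM there, 0 CPM in GFP library 4 and 1.19 and 1.19 CPM in the Thy1.1 libraries. H2-Aa, an MHC class II chain, was at 34.00 CPM in library 3, 0.132 CPM in library 4 and 1.31 and 0.677 CPM in the Thy1.1 libraries. Over 18 markers of MHC class II-bearing cells and conventional dendritic cells, the summed level was 363.5 CPM in library 3 and 136 to 204 CPM in the 7 others, with Cd74, the class II invariant chain, making up 174 CPM of it. The markers H2-Ab1, H2-Eb1, H2-DMb1 and Clec9a of that list were at 0 in all 8 libraries. Such values cannot tell a lack of RNA from a gene that was not counted, and this was not tested. The 18 plasmacytoid markers summed to 376 CPM in library 3 and 275 to 379 CPM in the others, and 5 of them exceeded 5 CPM in every library. Even so, 10 of these plasmacytoid markers were highest in library 3. The 18 myeloid markers summed to 314 CPM in library 3 and 265 to 363 CPM in the others. Ctss made up most of that sum, with 248 CPM in library 3 and 223 to 358 CPM in the others. By number, 10 of the 18 myeloid markers were highest in library 3. Of these 18, 11 were tested, 0 were called by edgeR and 1, higher, by DESeq2, and 2 were higher in GFP cells at an unadjusted p under 0.05. Their median log2 fold change was 2.69, or 1.49 without library 3, but 14 of the 18 had a count of 0 in at least 1 library, so these folds depend on the prior count. The 18 listed B cell and plasma cell genes, 16 of them measured, summed to 34.7 CPM and 18.5 to 60.8 CPM. Of 100 markers of other cell types with a count in any library, 34 were highest in GFP library 3 and 4 to 20 in each of the others. The genes called higher in GFP cells and the 6 lists of T cell and cell state genes with the highest medians are therefore also given without this library, and the part of the foreign RNA in any of them was not tested beyond that.

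**Figure D1:**
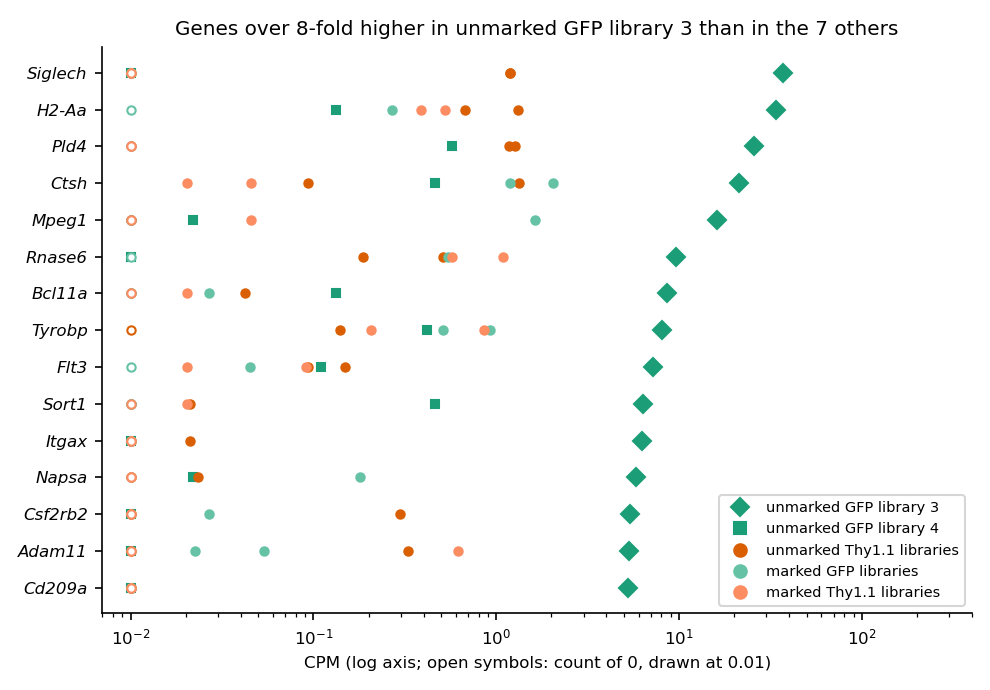
Level in CPM (log axis) of the 15 genes that were over 8-fold higher in unmarked GFP library 3 than in any other library, with 1 symbol for each of the 8 libraries. Siglech stands at 36.8 CPM in that library and at no more than 1.19 CPM in the others.

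Foxp3 itself, the check of the sort, was present in every library, at 146 and 166 CPM in GFP libraries 3 and 4 and 175 and 201 CPM in Thy1.1 libraries 1 and 2. The Thy1.1 libraries were the higher, but the difference of -0.27 ± 0.12 (log2 fold change, GFP over Thy1.1, ± SE) had an adjusted p of 0.430 in edgeR's quasi-likelihood test. Its exons overlap those of Ccdc22 on the opposite strand, which the library kit does not separate. Thy1, the gene of the T cell surface glycoprotein whose 1.1 allele serves as the other reporter, was at 39.8 and 36.3 CPM in the GFP libraries and 80.8 and 72.6 CPM in the Thy1.1 libraries, without overlap. It was lower in GFP cells by a log2 fold change of -1.01 ± 0.14 (adjusted p = 0.0481). Thy1.1 cells were sorted by this reporter, and counts per gene cannot separate any reporter RNA from that of Thy1 itself. The Thy1 difference may therefore come from the sort, which was not tested. In bulk RNA, fewer cells of a kind and less RNA per cell cannot be told apart, here and in all results that follow.

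Across all tested genes, 23 (0.164%) differed between unmarked GFP and unmarked Thy1.1 cells at an adjusted p under 0.05, 9 higher and 14 lower in GFP cells. These calls rest on the spread estimated over all 8 libraries: with the 4 unmarked libraries alone, 1 gene (Naip5, lower) was called, and 1540 genes had an unadjusted p under 0.05. In the fit of all 8, an unadjusted p under 0.05 was reached by 1662 genes, 846 higher (6.05% of those tested) and 816 lower (5.83%). The libraries of the populations did not overlap for 21.4% of tested genes with GFP higher and for 21.2% with GFP lower, which is the background for such counts. All 23 called genes were without overlap, and DESeq2, which made 581 calls (2.36% of tested genes higher and 1.79% lower), also called all 23. Without overlap, their direction was all but bound to hold in each fit that left out 1 unmarked library, and it held. The number of calls did not: it was 9 without GFP library 3, 75 without GFP library 4, and 0 without either unmarked or either marked Thy1.1 library, where 1076 to 1328 genes had an unadjusted p under 0.05. Of the 23 genes, 5 were still called without GFP library 3 and 15 without GFP library 4.

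**Figure D2:**
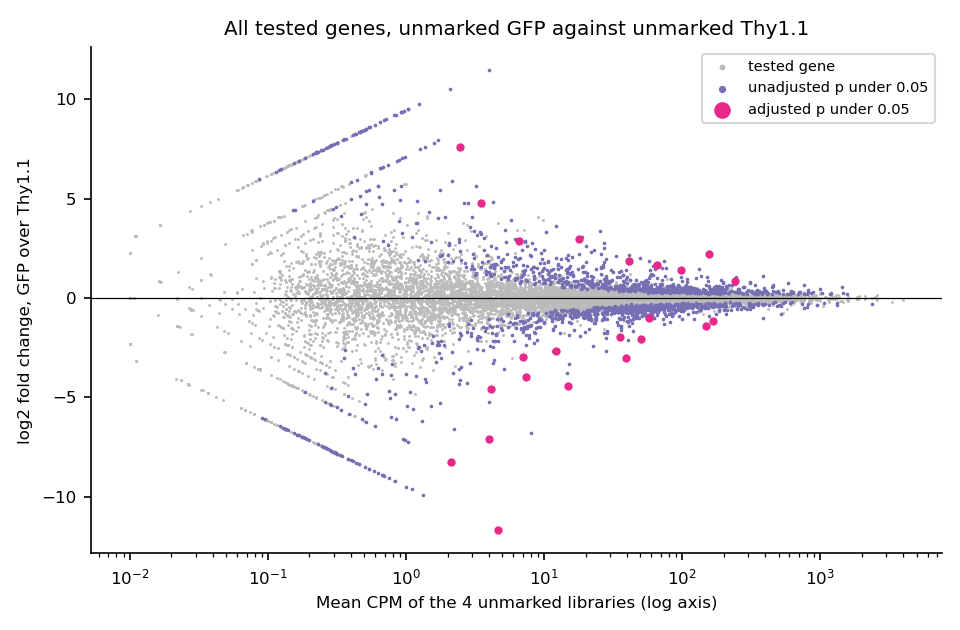
Log2 fold change of unmarked GFP over unmarked Thy1.1 cells against the mean CPM of the 4 libraries (log axis), 1 point per tested gene. The 23 genes past an adjusted p of 0.05 are the large points, 9 above and 14 below 0.

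The 9 genes that were higher in GFP cells included a pair of inhibitory receptors and a chemokine receptor. Havcr2, which encodes the inhibitory receptor TIM-3, was at 11.5 and 11.6 CPM in GFP libraries 3 and 4 and 1.76 and 1.42 CPM in Thy1.1 libraries 1 and 2. Both GFP libraries were alike and both stood well above the Thy1.1 libraries, with a log2 fold change of 2.86 ± 0.29 (adjusted p = 0.0148). Lag3, an inhibitory receptor that binds MHC class II, was at 75.1 and 54.9 CPM in the GFP libraries and 14.5 and 21.4 CPM in the Thy1.1 libraries, and rose by 1.86 ± 0.22 (adjusted p = 0.0329). Ccr2, the receptor for the monocyte-recruiting chemokine CCL2, was at 328 and 190.4 CPM in the GFP libraries and 54.02 and 56.6 CPM in the Thy1.1 libraries. Its level was highest in library 3, yet library 4 alone also lay above both Thy1.1 libraries. The log2 fold change was 2.23 ± 0.23 (adjusted p = 0.0148). Without library 3 the log2 fold changes were 2.86 for Havcr2 (adjusted p = 0.0697), 1.61 for Lag3 (adjusted p = 0.113) and 1.78 for Ccr2 (adjusted p = 0.0340).

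The other genes that were higher in GFP cells were of mixed function. Myb, a transcription factor of progenitors and activated lymphocytes, was at 82.8 and 118 CPM in the GFP libraries and 28.3 and 35.7 CPM in the Thy1.1 libraries, here with library 4 the higher of the pair. It rose by 1.65 ± 0.22 (adjusted p = 0.0481). Stom, the membrane protein stomatin, was at 39.2 and 24.6 CPM in the GFP libraries and 4.76 and 3.39 CPM in the Thy1.1 libraries, a log2 fold change of 2.97 ± 0.28 (adjusted p = 0.0146). It remained called without library 3, at 2.59 (adjusted p = 0.0476). Angptl2, a secreted angiopoietin-like protein, was at 164 and 124 CPM in the GFP libraries and 54.04 and 53.9 CPM in the Thy1.1 libraries and rose by 1.41 ± 0.18 (adjusted p = 0.0441). Snx2, a sorting nexin of endosomes, showed the smallest called increase, 0.88 ± 0.11 (adjusted p = 0.0431), from 159.8 and 179 CPM in the Thy1.1 libraries to 340.2 and 284 CPM in the GFP libraries. Of these 9 genes, 7 were higher in library 3 than in library 4, as were 50.2% of all tested genes. The exceptions were Havcr2 and Myb.

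A pair of the higher genes were near the detection limit in Thy1.1 cells. Clec2g, a C-type lectin-like gene of a family with close relatives, was at 7.14 and 6.29 CPM in the GFP libraries and 0.339 and 0.140 CPM in the Thy1.1 libraries, a log2 fold change of 4.79 ± 0.58 (adjusted p = 0.0400). The unnamed gene model Gm15987 had 452 counts over the GFP libraries and 2 counts over the Thy1.1 libraries. That is a ratio of 222 with a 95% exact counting interval of 61.1 to 1839, which leaves out the spread between libraries. Its CPM were 5.19 and 4.66 CPM in the GFP libraries and 0 and 0.0467 CPM in the Thy1.1 libraries, and the adjusted p was 0.0481. Without library 3 the log2 fold changes were 1.88 for Myb, 1.20 for Angptl2, 0.75 for Snx2 and 4.69 for Clec2g, with adjusted p of 0.0697, 0.144, 0.125 and 0.120. For Gm15987 the adjusted p without library 3 was 0.140.

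**Figure D3:**
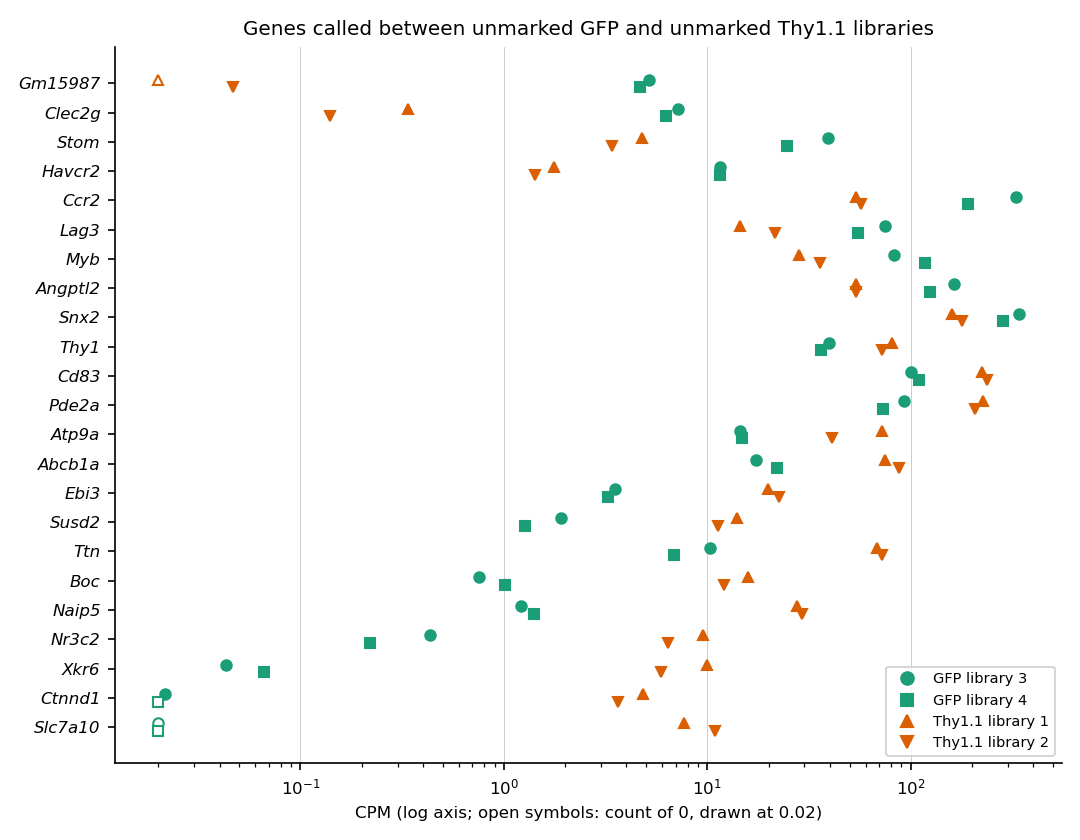
CPM (log axis) of the 23 called genes in the 4 unmarked libraries, ordered by log2 fold change, with filled symbols for counts and open symbols for a count of 0. The green GFP symbols and orange Thy1.1 symbols overlap for none of the 23 genes.

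The 14 genes lower in GFP cells included a cytokine subunit and several surface proteins. Cd83, an immunoglobulin-family surface protein of activated Treg and dendritic cells, was at 100.1 and 109 CPM in GFP libraries 3 and 4 and 224 and 237 CPM in Thy1.1 libraries 1 and 2. The libraries of each population were close together and the log2 fold change was -1.14 ± 0.11 (adjusted p = 0.0146). Ebi3, a subunit shared by the cytokines IL-27 and IL-35, was at 3.53 and 3.26 CPM in the GFP libraries and 19.8 and 22.5 CPM in the Thy1.1 libraries, a log2 fold change of -2.64 ± 0.24 (adjusted p = 0.0146). Its exons overlap those of the gene model Gm16712 on the opposite strand. Susd2, a sushi-domain membrane protein, was at 1.90 and 1.28 CPM in the GFP libraries and 13.97 and 11.2 CPM in the Thy1.1 libraries and fell by 2.98 ± 0.29 (adjusted p = 0.0146). Boc, a cell surface co-receptor for Hedgehog ligands, was at 0.757 and 1.01 CPM in the GFP libraries and 15.9 and 12.1 CPM in the Thy1.1 libraries and fell by 3.98 ± 0.40 (adjusted p = 0.0146).

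Transporters and enzymes formed a further set. Abcb1a, which encodes the drug efflux pump P-glycoprotein, was at 17.4 and 21.98 CPM in the GFP libraries and 74.8 and 87.3 CPM in the Thy1.1 libraries, a log2 fold change of -2.04 ± 0.15 and the smallest adjusted p of the comparison (0.0122). Slc7a10, a transporter of small neutral amino acids, had 0 counts in both GFP libraries and 829 counts over the Thy1.1 libraries. With 3 counts over the GFP libraries as the limit, it was at least 281-fold lower in GFP cells (adjusted p = 0.0146). Its exons overlap those of Lrp3 on the opposite strand, and Lrp3 was at 0.0433 and 0 CPM in the GFP libraries and 0.720 and 0.771 CPM in the Thy1.1 libraries. Pde2a, a phosphodiesterase of cyclic nucleotides, was at 92.5 and 72.7 CPM in the GFP libraries and 226 and 207 CPM in the Thy1.1 libraries and fell by 1.39 ± 0.18 (adjusted p = 0.0434). Atp9a, a P-type ATPase of the lipid flippase family, was at 14.5 and 14.9 CPM in the GFP libraries and 71.8 and 41.00 CPM in the Thy1.1 libraries, with Thy1.1 library 1 the highest, and fell by 1.94 ± 0.25 (adjusted p = 0.0441).

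Nr3c2, the mineralocorticoid receptor, was at 0.433 and 0.220 CPM in the GFP libraries and 9.48 and 6.37 CPM in the Thy1.1 libraries, a log2 fold change of -4.59 ± 0.47 (adjusted p = 0.0148). Ttn, which encodes the muscle protein titin, was at 10.3 and 6.89 CPM in the GFP libraries and 68.1 and 72.6 CPM in the Thy1.1 libraries and fell by 3.03 ± 0.25 (adjusted p = 0.0146). Naip5, an innate sensor of bacterial flagellin, was at 1.21 and 1.41 CPM in the GFP libraries and 27.7 and 29.02 CPM in the Thy1.1 libraries and fell by 4.43 ± 0.56 (adjusted p = 0.0431). Naip5 belongs to a cluster of near-identical genes, so its reads may have been split among them. Ctnnd1, the adhesion protein p120 catenin, had 1 count over the GFP libraries and 384 over the Thy1.1 libraries, a ratio of 391 with a counting interval of 69.7 to 15480 (adjusted p = 0.0441). Xkr6, a membrane protein of the XK family, was at 0.0433 and 0.0660 CPM in the GFP libraries and 9.97 and 5.88 CPM in the Thy1.1 libraries, a log2 fold change of -7.11 ± 0.89 (adjusted p = 0.0431). For all 14 lower genes, both GFP libraries lay below both Thy1.1 libraries. In the annotation used here, 10 of the 23 called genes share exon sequence with another gene.

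Core Treg genes were present in both populations, and edgeR called 0 of the 22. At an unadjusted p under 0.05, 4 were higher and 4 lower in GFP cells, DESeq2 called 4 and 4, and the median log2 fold change of the list was 0.11, against 0.00 over all tested genes. Il2ra, the IL-2 receptor alpha chain CD25, was at 893 and 1309 CPM in the GFP libraries and 768 and 1056 CPM in the Thy1.1 libraries. The populations overlapped, with a log2 fold change of 0.27 ± 0.28 (adjusted p = 0.773). Ctla4, an inhibitory receptor by which Treg cells remove costimulatory ligands, was at 641 and 471 CPM in the GFP libraries and 362 and 348 CPM in the Thy1.1 libraries, without overlap but with an adjusted p of 0.140. Entpd1, the ectonucleotidase CD39, was at 62.1 and 55.8 CPM in the GFP libraries and 118 and 100.03 CPM in the Thy1.1 libraries (log2 fold change -0.89 ± 0.15, adjusted p = 0.0641). Itgae, the CD103 integrin chain that binds epithelial cadherin, was at 233 and 233 CPM in the GFP libraries and 340.5 and 328 CPM in the Thy1.1 libraries (-0.52 ± 0.09, adjusted p = 0.0616). Socs2, a feedback inhibitor of cytokine signalling, was at 175 and 198 CPM in the GFP libraries and 63.5 and 108 CPM in the Thy1.1 libraries (1.12 ± 0.29, adjusted p = 0.191).

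Genes associated with Treg cells of thymic origin had the lowest median of the 19 lists of T cell and cell state genes. Over 12 tested members the median log2 fold change was -0.41, with Cd83 called lower, 3 members lower and 1 higher at an unadjusted p under 0.05, and 7 lower and 2 higher without overlap. Nrp1, the semaphorin receptor neuropilin-1, was at 233 and 288 CPM in the GFP libraries and 558 and 471 CPM in the Thy1.1 libraries. Both GFP libraries lay below both Thy1.1 libraries, with a log2 fold change of -0.98 ± 0.16 and an adjusted p of 0.0629. Ikzf2, the transcription factor Helios, was at 289 and 470.1 CPM in the GFP libraries and 627 and 696 CPM in the Thy1.1 libraries (-0.80 ± 0.24, adjusted p = 0.239), with GFP library 3 well below library 4. Cd200, a ligand of an inhibitory receptor, was the member higher at an unadjusted p under 0.05, at 121 and 118 CPM in the GFP libraries and 95.6 and 79.4 CPM in the Thy1.1 libraries (0.44 ± 0.13, adjusted p = 0.239). Without library 3 the median of the list was -0.37.

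Of 20 thymocyte and recent emigrant genes, 17 were tested and 0 called. At an unadjusted p under 0.05, 3 were higher and 1 was lower in GFP cells, DESeq2 called 2 and 0, and the median was 0.14. Sox4, a transcription factor high in immature T cells, was at 38.05 and 39.4 CPM in GFP libraries 3 and 4 and 14.8 and 11.9 CPM in Thy1.1 libraries 1 and 2. The GFP libraries were nearly equal and both above the Thy1.1 libraries, by 1.54 ± 0.29 (adjusted p = 0.0877), and by 1.56 without library 3 (adjusted p = 0.321). Satb1, a chromatin organizer needed for T cell development, was at 847 and 994 CPM in the GFP libraries and 686 and 725 CPM in the Thy1.1 libraries (0.38 ± 0.10, adjusted p = 0.191). Ccr9, the receptor for the small-intestinal chemokine CCL25, was at 325 and 179 CPM in the GFP libraries and 145 and 120.3 CPM in the Thy1.1 libraries (0.93 ± 0.35, adjusted p = 0.356), with library 3 far above library 4. Ldhb, a lactate dehydrogenase chain, was the member lower at an unadjusted p under 0.05, at 35.1 and 37.6 CPM in the GFP libraries and 54.2 and 52.6 CPM in the Thy1.1 libraries (-0.55 ± 0.17, adjusted p = 0.244). The recombinase gene Rag1 was at 0 in all 4 libraries, a limit of 0.0635 to 0.0700 CPM each, and Rag2 was at 0 in both GFP libraries and did not exceed 0.0233 CPM in the Thy1.1 libraries.

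Naive and lymphoid-homing genes were measured in both populations, and 18 of the 20 exceeded 5 CPM in all 8 libraries. Of the 20, 0 were called by edgeR and 2, both higher, by DESeq2. At an unadjusted p under 0.05 3 were higher and 1 lower, and the median was -0.04. Ccr7, the chemokine receptor for entry to lymph nodes, was at 581 and 611 CPM in the GFP libraries and 559 and 565 CPM in the Thy1.1 libraries (0.09 ± 0.12, adjusted p = 0.854). Lef1, a transcription factor of naive T cells, was at 759 and 791 CPM in the GFP libraries and 589 and 654 CPM in the Thy1.1 libraries, with both GFP libraries the higher (0.32 ± 0.09, adjusted p = 0.216). Txk, a kinase of the T cell receptor pathway, was at 204 and 209 CPM in the GFP libraries and 144 and 165 CPM in the Thy1.1 libraries (0.42 ± 0.12, adjusted p = 0.233). Dgka, a diacylglycerol kinase that damps receptor signalling, was the member lower at an unadjusted p under 0.05, with a log2 fold change of -0.24 ± 0.10 (adjusted p = 0.394). Il7r, the IL-7 receptor chain of long-lived T cells, was at 67.7 and 143 CPM in the GFP libraries and 142 and 219 CPM in the Thy1.1 libraries (-0.78 ± 0.37, adjusted p = 0.465).

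Genes of the cell cycle had the highest median of the same 19 lists, the markers of other cell types left aside, although edgeR called 0 of the 50. At an unadjusted p under 0.05, 35 of the 50 were higher in GFP cells and 0 lower, and 45 were higher without overlap and 0 lower. The median log2 fold change was 1.22. Mki67, which marks dividing cells, was at 23.2 and 19.6 CPM in GFP libraries 3 and 4 and 8.15 and 7.52 CPM in Thy1.1 libraries 1 and 2. Its log2 fold change was 1.45 ± 0.39 (adjusted p = 0.201). Stmn1, a regulator of microtubules in mitosis, was at 50.8 and 34.5 CPM in the GFP libraries and 11.9 and 12.4 CPM in the Thy1.1 libraries (1.81 ± 0.26, adjusted p = 0.0525). Rrm2, the S-phase subunit of ribonucleotide reductase, was at 104 and 55.99 CPM in the GFP libraries and 23.96 and 14.8 CPM in the Thy1.1 libraries (2.04 ± 0.35, adjusted p = 0.0653). Both GFP libraries exceeded both Thy1.1 libraries for each of these, with library 3 the higher. The same held for Mybl2, a transcription factor of dividing cells, with a log2 fold change of 2.80 ± 0.45 (adjusted p = 0.0612), and for Ccna2, cyclin A2, at 1.30 ± 0.22 (adjusted p = 0.0629), whose exons overlap those of Exosc9. Library 3 exceeded library 4 for 44 of the 50 genes, against 50.2% of all tested genes. Without library 3, 20 of the 50 were higher at an unadjusted p under 0.05, where 3.49% of tested genes were, and the median was 0.81. With all libraries, DESeq2 called 19 of the 50, all higher. Siglech and the class II and dendritic cell sum were also highest in library 3, as given above, and their part in this list was not tested.

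Genes typical of intestinal Treg cells had the next highest median of these 19 lists. Of 19 tested, Havcr2 and Lag3 were called higher and none lower. At an unadjusted p under 0.05, 14 were higher and 0 lower, 15 were higher without overlap, and the median was 1.14. Maf, a transcription factor of intestinal Treg cells that controls IL-10, was at 137 and 74.9 CPM in the GFP libraries and 34.8 and 38.1 CPM in the Thy1.1 libraries. Its log2 fold change was 1.54 ± 0.25 (adjusted p = 0.0616). Il10, the anti-inflammatory cytokine, was at 56.8 and 33.8 CPM in the GFP libraries and 7.37 and 15.5 CPM in the Thy1.1 libraries (1.99 ± 0.43, adjusted p = 0.125). Il1r1, the IL-1 receptor, was at 65.8 and 28.8 CPM in the GFP libraries and 5.44 and 8.20 CPM in the Thy1.1 libraries (2.80 ± 0.40, adjusted p = 0.0525). For all of these library 3 was the highest and library 4 still lay above both Thy1.1 libraries. Library 3 exceeded library 4 for 18 of the 19 genes, against 50.2% of all tested genes. Without library 3 the median of the list was 0.78.

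**Figure D4:**
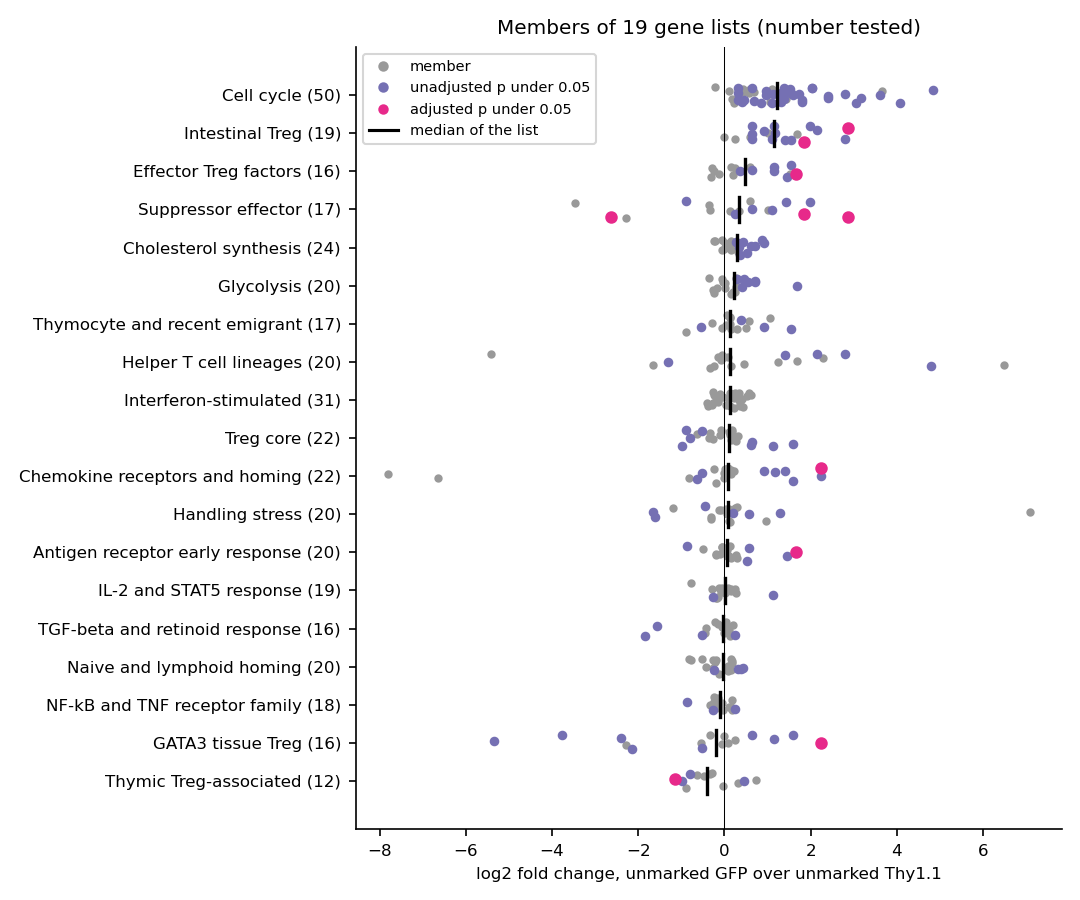
Log2 fold change of unmarked GFP over unmarked Thy1.1 cells for the tested members of each gene list, with the median of each list as a black bar. The cell cycle list (median 1.22) and the intestinal Treg list (median 1.14) lie to the right, and the thymic Treg-associated list (median -0.41) lies lowest.

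Effector factors and suppressor genes overlapped with that list in part. Of 16 effector Treg factors, Myb was called higher, 7 were higher and 0 lower at an unadjusted p under 0.05, and the median was 0.48. Without library 3 the median of the effector list was 0.21. Prdm1, which encodes the effector factor Blimp-1, was at 94.1 and 71.2 CPM in the GFP libraries and 34.1 and 40.9 CPM in the Thy1.1 libraries (1.14 ± 0.17, adjusted p = 0.0542). Irf4, an activation-induced factor of effector Treg cells, was at 107 and 78.3 CPM in the GFP libraries and 32.3 and 35.3 CPM in the Thy1.1 libraries (1.46 ± 0.35, adjusted p = 0.157). Of 17 tested suppressor effector genes, Havcr2 and Lag3 were called higher and Ebi3 lower, with 7 higher and 2 lower at an unadjusted p under 0.05 and a median of 0.34. Library 3 exceeded library 4 for 14 of the 18 measured members, against 50.2% of all tested genes. Without library 3 the median of the suppressor list was 0.14. Among them Icos, a costimulatory receptor, was at 636 and 420.4 CPM in the GFP libraries and 219.99 and 271 CPM in the Thy1.1 libraries (1.11 ± 0.19, adjusted p = 0.0641). Lgals1, the lectin galectin-1, was at 183 and 107 CPM in the GFP libraries and 55.5 and 52.3 CPM in the Thy1.1 libraries (1.43 ± 0.26, adjusted p = 0.0767).

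Genes of GATA3-expressing tissue Treg cells did not share a direction. Of 16 tested, Ccr2 was called higher, and at an unadjusted p under 0.05 4 were higher and 5 lower, with a median of -0.20. Gata3 itself was at 163 and 151 CPM in the GFP libraries and 167 and 157 CPM in the Thy1.1 libraries, nearly equal in all 4 libraries (-0.05 ± 0.23, adjusted p = 0.965). Klrg1, an inhibitory receptor of terminally differentiated cells, was at 3.11 and 0.902 CPM in the GFP libraries and 27.6 and 27.6 CPM in the Thy1.1 libraries. It was low in both GFP libraries, with a log2 fold change of -3.78 ± 0.60 and an adjusted p of 0.0612. Il1rl1, the IL-33 receptor ST2 of tissue Treg cells, was at 9.39 and 5.06 CPM in the GFP libraries and 33.2 and 43.4 CPM in the Thy1.1 libraries (-2.40 ± 0.35, adjusted p = 0.0525). Il9r, the IL-9 receptor, was at 1.36 and 2.02 CPM in the GFP libraries and 9.25 and 5.79 CPM in the Thy1.1 libraries (-2.15 ± 0.40, adjusted p = 0.0841). Ccr4, a receptor for skin and tissue homing, lay the other way, at 106 and 78.7 CPM in the GFP libraries and 30.2 and 30.9 CPM in the Thy1.1 libraries (1.59 ± 0.24, adjusted p = 0.0564).

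Among 22 chemokine receptors and homing genes, Ccr2 was the member called, with 6 higher and 2 lower at an unadjusted p under 0.05 and a median of 0.08. Ccr6, a receptor of mucosal tissue, was at 111 and 59.6 CPM in the GFP libraries and 30.1 and 34.4 CPM in the Thy1.1 libraries (1.41 ± 0.33, adjusted p = 0.151). It was highest in library 3, with library 4 above the Thy1.1 libraries. Of 20 tested helper lineage genes, 0 were called, 4 were higher and 1 lower at an unadjusted p under 0.05, and DESeq2 called 4 and 1. Their median was 0.13, or 0.04 with 2 members that had no count in 1 population set to their bound. Il21, the cytokine of follicular helper cells, was at 8.93 and 2.00 CPM in the GFP libraries and 0 and 0.397 CPM in the Thy1.1 libraries, where Thy1.1 library 1 had 0 counts (adjusted p = 0.191).

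Signalling lists lay near 0. Of 20 early response genes of the antigen receptor, Myb was called, with 4 higher and 1 lower at an unadjusted p under 0.05 and a median of 0.06. Egr1, an immediate early factor, was at 357 and 312 CPM in the GFP libraries and 235 and 215 CPM in the Thy1.1 libraries (0.57 ± 0.11, adjusted p = 0.0900). Tnfaip3, an inhibitor of NF-kB signalling, was at 62.99 and 70.7 CPM in the GFP libraries and 133 and 113 CPM in the Thy1.1 libraries (-0.88 ± 0.22, adjusted p = 0.173). The 18 NF-kB and TNF receptor family genes had 0 calls (1 lower by DESeq2), 1 higher and 2 lower at an unadjusted p under 0.05 and a median of -0.11. The 19 IL-2 and STAT5 response genes had 0 calls (1 higher by DESeq2), 1 in each direction at an unadjusted p under 0.05 and a median of 0.00. The 16 TGF-beta and retinoid response genes had 0 calls (2 lower by DESeq2), 1 higher and 3 lower at an unadjusted p under 0.05, with a median of -0.03. Among them Itgb8, the integrin chain that activates latent TGF-beta, was at 4.89 and 16.5 CPM in the GFP libraries and 28.4 and 35.1 CPM in the Thy1.1 libraries (-1.57 ± 0.50, adjusted p = 0.272). Ltbp4, which binds latent TGF-beta in the matrix, was at 2.44 and 1.52 CPM in the GFP libraries and 10.9 and 3.20 CPM in the Thy1.1 libraries (-1.83 ± 0.77, adjusted p = 0.404), and Tgfb1 itself at 188 and 186 CPM in the GFP libraries and 156 and 158 CPM in the Thy1.1 libraries (0.25 ± 0.09, adjusted p = 0.346).

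Metabolic genes tended to small positive values. Of 20 glycolysis genes, 0 were called by edgeR and 2, both higher, by DESeq2, 7 were higher and 0 lower at an unadjusted p under 0.05, and the median was 0.22, or 0.09 with 1 higher without library 3. Ldha, the lactate dehydrogenase chain of glycolytic cells, was at 1259 and 1033 CPM in the GFP libraries and 851 and 826 CPM in the Thy1.1 libraries (0.45 ± 0.10, adjusted p = 0.126). Of 24 cholesterol synthesis genes, 0 were called by edgeR and 2, both higher, by DESeq2, 9 were higher and 0 lower at an unadjusted p under 0.05, and the median was 0.29, or 0.23 with 1 higher without library 3. Hmgcs1, an enzyme at the entry of the pathway, was at 88.6 and 81.7 CPM in the GFP libraries and 60.2 and 44.5 CPM in the Thy1.1 libraries (0.70 ± 0.20, adjusted p = 0.214). Cyp51, a later enzyme of the pathway, had a log2 fold change of 0.51 ± 0.15 (adjusted p = 0.228). Of 20 genes of handling stress, 0 were called by edgeR and 4 by DESeq2, 2 in each direction, and 3 were higher and 3 lower at an unadjusted p under 0.05. Fos, an immediate early gene that cell handling induces, was at 31.7 and 22.8 CPM in the GFP libraries and 9.17 and 12.98 CPM in the Thy1.1 libraries (1.30 ± 0.30, adjusted p = 0.147). Hspa1b, an inducible heat shock protein, was at 19.6 and 22.9 CPM in the GFP libraries and 104 and 30.7 CPM in the Thy1.1 libraries, with Thy1.1 library 1 alone high (-1.66 ± 0.51, adjusted p = 0.257).

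Interferon-stimulated genes followed the library numbers within each population, and no difference between the reporters was called. Of 31 tested, 0 were called by edgeR or DESeq2, 0 had an unadjusted p under 0.05, 0 were without overlap, and the median was 0.12, or 0.66 without library 3. All 31 were lower in GFP library 3 than in library 4, by a median of 1.32 on a log2 scale, and all 31 were lower in Thy1.1 library 1 than in library 2, by a median of 1.12. Over all tested genes, 48.5% were lower in GFP library 3 and 49.2% in Thy1.1 library 1. In marked cells the lower-numbered library was also the lower, for 30 of 31 genes in GFP cells and 31 of 31 in Thy1.1 cells. What sets the library numbers apart is not given in the labels, and it was not tested.

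The same reporters were then compared in marked cells, and the difference of the 2 reporter differences was tested. The levels come from other libraries, but the comparisons share the estimate of the spread and the scaling, so their calls are not independent. All 23 genes called in unmarked cells had the same sign in marked cells, and 21 of them were called there in the same direction. These were all 9 higher genes, where 8.01% of tested genes were called higher in marked cells, and 12 of the 14 lower genes, where 6.82% were called lower. In size, 5 of the 9 higher and 2 of the 14 lower genes differed more in marked than in unmarked cells. The genes were selected by their difference in unmarked cells, which favours larger sizes there, so these counts do not compare the populations evenly. The difference of the reporter differences was called for 62 of the 13989 genes (0.443%), and for 1 of the 23. That gene was Abcb1a, at 78.1 and 76.8 CPM in marked GFP and 129.7 and 126 CPM in marked Thy1.1 libraries. Its reporter difference was -0.73 ± 0.14 in marked cells, more negative in unmarked cells by -1.31 ± 0.21 (adjusted p = 0.0478).

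Naive and lymphoid-homing genes held the most genes, of the 19 lists, whose reporter difference differed between unmarked and marked cells. The difference of the reporter differences was called for 7 of 20, and 12 of 20 were called lower in marked GFP cells, with a median of -0.78 there and -0.04 in unmarked cells. Satb1 was at 214 and 197 CPM in marked GFP and 385 and 415 CPM in marked Thy1.1 libraries, a log2 fold change of -0.96 ± 0.10. The unmarked reporter difference exceeded that by 1.34 ± 0.14 (adjusted p = 0.0161), and for Lef1 the excess was 1.13 ± 0.13 (adjusted p = 0.0165). Also among them were Bach2, a repressor that keeps T cells quiescent, with 1.499 ± 0.16 (adjusted p = 0.0165), and Bcl2, the survival factor, with 2.39 ± 0.25 (adjusted p = 0.0153). Id3, an inhibitor of E-protein transcription factors, had 2.42 ± 0.19 (adjusted p = 0.0129), and Nsg2, a vesicle protein of neurons, had 2.32 ± 0.24 (adjusted p = 0.0153). In all 7, the gene was lower in marked GFP than in marked Thy1.1 cells and between -0.22 (Nsg2) and 0.38 (Satb1) on the log2 scale in unmarked cells, where edgeR called 0 of them.

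Nrp1 and Swap70, of the thymic Treg-associated list, also differed. Nrp1 was at 90.5 and 94.4 CPM in marked GFP and 578 and 435 CPM in marked Thy1.1 libraries, and the unmarked GFP libraries lay between. Its reporter difference was less negative in unmarked cells by 1.47 ± 0.23 (adjusted p = 0.0478). For Swap70, a signalling protein of the actin cytoskeleton, it was less negative by 3.40 ± 0.32 (adjusted p = 0.0132), with 71.1 and 100.1 CPM in the GFP libraries and 95.9 and 114 CPM in the Thy1.1 libraries in unmarked cells and 7.99 and 5.64 CPM in marked GFP libraries. Ldhb differed in the same sense, by 1.86 ± 0.24 (adjusted p = 0.0228).

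Other genes had a larger reporter difference in marked cells. Of the 50 cell cycle genes, 48 were called higher in marked GFP cells, with a median of 2.68. The difference of the reporter differences was called for 4 of them, Mcm2, Mcm10, Uhrf1 and Kif23, all of which act in DNA replication, its maintenance methylation or cell division. Mcm2, a subunit of the replicative helicase, was at 129 and 137 CPM in the GFP libraries and 101 and 112 CPM in the Thy1.1 libraries in unmarked cells and 228 and 211 CPM in marked GFP libraries, a difference of -0.96 ± 0.15 (adjusted p = 0.0478). Uhrf1 had -2.70 ± 0.37 (adjusted p = 0.0326), Kif23 -3.80 ± 0.59 (adjusted p = 0.0478) and Mcm10 -8.61 ± 0.99 (adjusted p = 0.0165). Mcm10 was near the detection limit in marked Thy1.1 libraries, so the size of its difference depends on the prior count. Of 19 intestinal Treg genes, 18 were called higher in marked GFP cells, with a median of 1.83, and 1 differed between the comparisons. That was Gpr15, a homing receptor of the large intestine, at 21.6 and 18.6 CPM in the GFP libraries and 18.01 and 22.7 CPM in the Thy1.1 libraries in unmarked and 199 and 148 CPM in marked GFP libraries (-1.70 ± 0.26, adjusted p = 0.0478). Itgae was lower in unmarked but higher in marked GFP cells than in their Thy1.1 counterparts, at 651 and 611 CPM in marked GFP and 486 and 436 CPM in marked Thy1.1 libraries (-0.98 ± 0.12, adjusted p = 0.0194). Tnfrsf1b, the TNF receptor TNFR2 of Treg cells, was at 625 and 603 CPM in the GFP libraries and 521 and 574 CPM in the Thy1.1 libraries in unmarked cells and 1169 and 1235 CPM in marked GFP libraries (-0.75 ± 0.11, adjusted p = 0.0392). This test made 0 calls without either unmarked Thy1.1 library and without marked Thy1.1 library 1, where 1155 to 1373 genes had an unadjusted p under 0.05, and 1 call without marked Thy1.1 library 2.

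**Figure D5:**
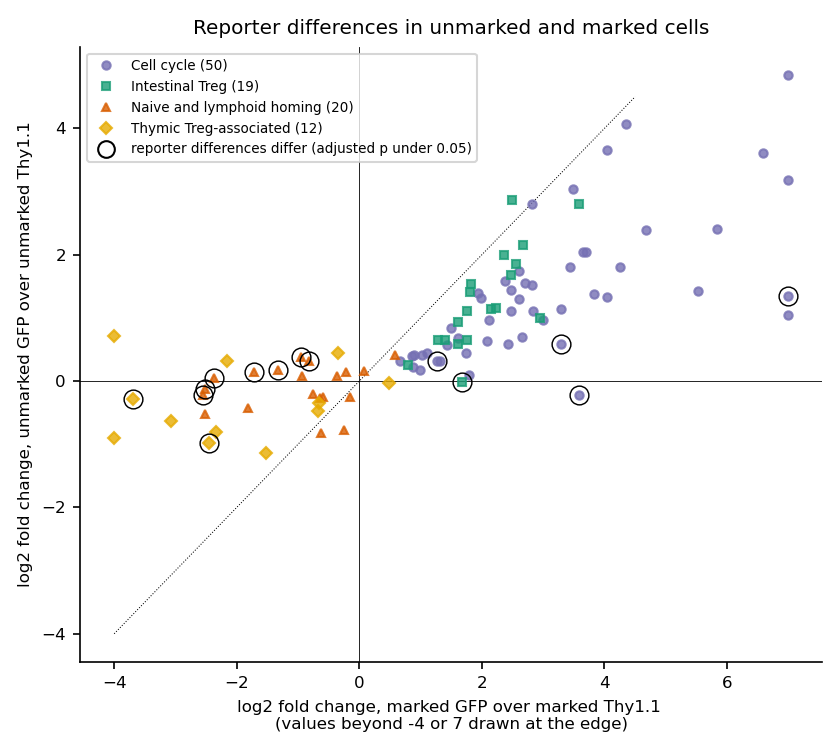
Log2 fold change of GFP over Thy1.1 cells among unmarked cells (vertical axis) and among marked cells (horizontal axis) for the tested members of 4 gene lists. Most naive genes lie left of 0 and near 0 in height, all cell cycle genes lie right of the dotted line of equal values, and circles mark genes for which the difference was called.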

How the data were processed

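RNA of sorted CD4 T cells was amplified by SMART-Seq v4 chemistry, which does not mark strand, and sequenced as paired 50-nt reads, per the labels' protocols. The deposited table holds whole-number counts of reads for each gene, not normalized by the authors, per the file headers and values. No source used here gives the aligner, annotation or genome build, and the submitters' processing notes name DESeq. Of 24116 rows, 8 held no gene name (0.0215% to 0.0264% of counts) and were left out. The sample titles number the GFP libraries differently from the table, so GFP columns were assigned to their population only.

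In R 4.3.3, edgeR 4.0.16 kept 13989 genes by its expression filter (minimum count 10), scaled all 8 libraries by TMM and fitted 1 quasi-likelihood model with a mean per population and 4 residual degrees of freedom. Benjamini-Hochberg adjustment was made over all tested genes, with a threshold of 0.05, and genes past it are named as called. Standard errors come from the F statistic. Gene lists are described by counts and medians. Named genes were the called genes, for every list the members of smallest adjusted p (at most 4), and 13 genes of interest; members named for the difference between unmarked and marked cells were chosen after their values were seen, and some results are not reported here. The comparison, the members and the lists were chosen with earlier results of these data known. Alternatives were RLE factors, unscaled totals, other filters, DESeq2 1.42.0, a replicate block, the 4 unmarked libraries alone and leaving out each library. The scripts were tested on simulated counts. Gene overlaps come from GENCODE M21 by symbol, which matched 13624 of the 13989 tested genes, and 28 of the 81 genes named with a test share exon sequence with another gene.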

Additional observations from a re-analysis of the deposited data

Results flagged for a closer look

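The reporter difference (GFP minus Thy1.1, log2) differed between unmarked and marked cells for 17 genes named above, by edgeR's quasi-likelihood test of the difference itself with Benjamini-Hochberg adjustment. It was higher in unmarked cells for Swap70 (3.40), Id3 (2.42), Bcl2 (2.39), Nsg2 (2.32), Ldhb (1.86), Bach2 (1.499), Nrp1 (1.47), Satb1 (1.34) and Lef1 (1.13). It was lower in unmarked cells for Mcm10 (-8.61), Kif23 (-3.80), Uhrf1 (-2.70), Gpr15 (-1.70), Abcb1a (-1.31), Itgae (-0.98), Mcm2 (-0.96) and Tnfrsf1b (-0.75). Mcm10 was near 0 in marked Thy1.1 libraries, at 0.0409 and 0 CPM, so the size of its difference depends on the prior count.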

How the results depend on the processing

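The 23 calls between unmarked populations became 21 with RLE factors and 32 with library totals (15 higher and 17 lower, against 9 and 14). They became 98 with no filter on low counts and 98 with a minimum count of 50, 581 by DESeq2, 1 with the 4 unmarked libraries only, and 143 at an adjusted p threshold of 0.1, a limit added after seeing the data. The 62 calls of the difference between unmarked and marked cells became 109 with no filter, 106 with a minimum count of 50 and 568 by DESeq2. Leaving out 1 library gave 0 to 75 calls and 0 to 119 calls. It gave 20 to 36 cell cycle genes higher at an unadjusted p under 0.05, against 35, the lowest without GFP library 3. A replicate block by the parity of the library number gave 39 calls between unmarked populations (22 higher and 17 lower), 20 of them among the 23, and 63 for the difference, 46 of them among the 62. Under the block Gm15987, Ctnnd1 and Thy1 had an adjusted p of 0.0518, 0.0522 and 0.0516, and 5 of the 17 named differences missed the threshold (Mcm2, Nrp1, Abcb1a, Gpr15 and Kif23, at 0.0531 to 0.0710). Deviations of same-parity libraries correlated by 0.0325 to 0.0560 between populations over all tested genes. Such a correlation cannot tell whether libraries shared animals, days or batches, and interferon-stimulated genes did follow the library numbers in every population. The labels do not pair the libraries, so the main fit has no block, and a shared factor was not tested.

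Of 1215 values of 81 genes under 15 alternatives, 970 kept their direction and side of the threshold, 145 lost the call, 89 gained it and 11 changed sign, all of them uncalled genes near 0. Leaving out 1 library put Il2ra between -0.027 and 0.53, Gata3 between -0.102 and 0.011, Id3 between -0.0030 and 0.105, Bcl2 between -0.37 and 0.080, Gpr15 between -0.173 and 0.171, and Kif23 between -0.54 and 0.21. The fits behind these sign changes omitted unmarked libraries, and for Il2ra and Id3 it was GFP library 4. Gpr15 was at 0.0168 with no filter and at 0.0169 with a minimum count of 50. Leaving out 1 unmarked library moved the fold of the called genes Gm15987, Ctnnd1 and Clec2g by up to 9.13, 4.85 and 1.71 times. Among uncalled genes, Thy1.1 library 2 did so for Il21 (4.79 to 10.94), Mybl2 (2.80 to 3.47) and Il10 (1.99 to 2.63), and Thy1.1 library 1 for Ltbp4 (-1.83 to -0.69) and Hspa1b (-1.66 to -0.52). GFP library 3 did so for Klrg1 (-3.78 to -4.93), Il1r1 (2.80 to 2.08) and Mcm10 (1.34 to 0.75), and GFP library 4 for Itgb8 (-1.57 to -2.70, then called, adjusted p = 0.0399) and Il7r (-0.78 to -1.41). The causes were not tested. A fit without 1 library assumes that a lone library varies like the other populations.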
